A study of Mus musculus with 22 samples.

Results

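Sox2 level varied widely among 22 colon tumours of mice, and the 7 tumours with the highest level were set against the 7 with the lowest, across all other genes on the array. All tumours had been induced with azoxymethane, a chemical carcinogen of the rodent colon, in male FVB/N mice. Tumours came from 4 regimens, and the titles give each its own mouse, apart from the tumour titled Mouse_X, which has no number. The control mice (6 tumours) ate low-fat chow with 10% of its energy from fat. The obese mice (5 tumours) were given food with 60% of its energy from fat, obese mice of another group got sulindac, an inhibitor of cyclooxygenases, with that food (6 tumours), and the formerly obese mice (5 tumours) were switched from high-fat to low-fat food. The labels give no dose of sulindac, age, litter, batch or date. Levels are log2 values from Clariom S arrays, on which a probe set stands for a gene. Each sample is a piece of whole tumour, so a level reflects all its cells.

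Sox2 encodes a transcription factor that binds DNA through a high-mobility-group domain and works with partner factors. It maintains pluripotent cells, neural progenitors and the epithelium of the foregut, including oesophagus and stomach, and it is needed for taste cells of the tongue. The epithelium of the intestine is instead specified by caudal-type factors such as Cdx2, and Sox2 is normally at a low level there. WNT signalling maintains the crypt stem cells of the colon and drives most colon tumours.

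The ranking used Sox2 itself, so its own values are a description and carry no test. The 7 high tumours were at 15.19 (Mouse_113, obese), 14.44 (Mouse_26, control), 13.01 (Mouse_17, control), 11.70 (Mouse_X, obese sulindac), 11.63 (Mouse_140, formerly obese), 11.54 (Mouse_146, formerly obese) and 11.52 (Mouse_101, obese). The 7 low tumours were at 7.62 (Mouse_32, control), 7.03 (Mouse_150, formerly obese), 6.28 (Mouse_96, obese), 6.15 (Mouse_30, control), 6.07 (Mouse_129, obese sulindac), 6.05 (Mouse_152, formerly obese) and 4.94 (Mouse_134, formerly obese). The other 8 tumours lay from 10.40 down to 7.69. The upper limit therefore fell in a gap between 11.52 and 10.40, whereas the lower limit separated 7.62 from 7.69, values that are nearly the same. The highest and lowest tumour were 10.25 log2 units apart. The SD of Sox2 over the 22 tumours was 2.83, the 8th largest of all probe sets, against a median of 0.351. Sides were defined by a measured level and not assigned to the animals.

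**Figure D1:**
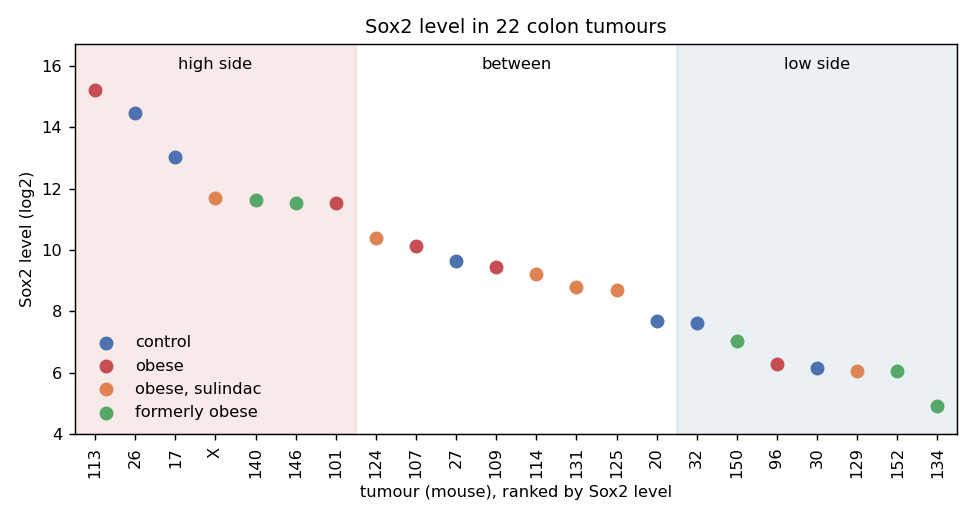
Sox2 level (log2, vertical axis) of each of the 22 tumours, ranked from highest to lowest, 1 point a tumour, coloured by regimen. Shading marks the 7 high and the 7 low tumours, and all 4 regimens appear on both sides.

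Every regimen stood on both sides. The high side held 2 control, 2 obese, 1 obese sulindac and 2 formerly obese tumours, and the low side 2, 1, 1 and 3. The 8 tumours in between comprised 2 control, 2 obese and 4 obese sulindac tumours and 0 formerly obese ones. Mean Sox2 level was 9.76 ± 3.30 in control (SD, n = 6), 10.51 ± 3.24 in obese (n = 5), 9.15 ± 1.89 in obese sulindac (n = 6) and 8.24 ± 3.14 in formerly obese tumours (n = 5). No difference among the regimens exceeded the spread between mice (limma F test, unadjusted p = 0.592, and 0.948 when adjusted over all probe sets). The obese mean was 0.75 log2 units above control, with a 95% interval of -2.63 to 4.13 (limma unadjusted p = 0.648, adjusted p = 0.9998). Obese sulindac minus obese was -1.37, with an interval of -4.75 to 2.02 (limma unadjusted p = 0.411, adjusted p = 0.931). Formerly obese tumours were 2.27 below obese ones on average. That difference of -2.27 had an interval of -5.81 to 1.26 (limma unadjusted p = 0.195, adjusted p = 0.895). Without the obese tumour Mouse_113 the obese mean lay below control, at a difference of -0.42, and formerly obese minus obese was -1.10. Without the obese tumour Mouse_96 the latter was -3.33.

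The promoters of the 2 genes that passed the test between the sides are shown first. Each is the 250 bases before the start of transcription from RefSeq (assembly GRCm38.p6), 5′ to 3′ on the gene's strand. Capitals mark a match to a motif searched on both strands, which were CATTGT (bound by SOX factors) and CTTTGA (TCF/LEF factors of the WNT pathway).
Bpifb5, chr2:154223492-154223741, + strand: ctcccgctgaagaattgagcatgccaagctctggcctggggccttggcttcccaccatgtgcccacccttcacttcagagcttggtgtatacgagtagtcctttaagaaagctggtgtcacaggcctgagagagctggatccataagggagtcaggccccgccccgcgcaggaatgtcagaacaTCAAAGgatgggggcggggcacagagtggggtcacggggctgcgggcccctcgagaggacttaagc
Hs3st3b1, chr11:63922285-63922534, - strand: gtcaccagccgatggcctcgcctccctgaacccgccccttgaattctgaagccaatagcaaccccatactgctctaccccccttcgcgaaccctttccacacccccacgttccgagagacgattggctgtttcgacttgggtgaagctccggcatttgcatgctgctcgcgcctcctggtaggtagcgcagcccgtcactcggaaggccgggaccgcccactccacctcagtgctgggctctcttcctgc
Bpifb5 had 1 match to CTTTGA and 0 to CATTGT, and Hs3st3b1 had 0 matches to either motif. Over all 32851 promoters of that table, 10.7% held CATTGT and 13.8% CTTTGA within the same window, and by gene, over the 15691 measured genes found there, 10.3% and 14.8% did. Of the WNT target and stem cell list described below, 14 genes had a promoter there, of which 3 (21.4%) held CTTTGA and 1 (7.14%) held CATTGT. Of the intestinal identity list, also described below, 16 genes had a promoter there, of which 2 (12.5%) held CTTTGA and 1 (6.25%) held CATTGT. A match describes letters in a window and is not evidence of binding.

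Bpifb5 and Hs3st3b1 were higher in Sox2-high tumours and were the only genes to pass the test over all probe sets. Bpifb5 encodes a secreted protein with a lipid-binding fold related to bactericidal/permeability-increasing protein. Its level ran from 9.76 through a median of 12.71 to 13.93 in the 7 high tumours, and from 5.30 through 6.52 to 9.23 in the 7 low ones. Each high tumour was above every low tumour. The mean rose by 5.35 ± 0.68 log2 units (SE), from 6.80 ± 1.25 to 12.14 ± 1.58 (SD, n = 7 and 7, limma adjusted p = 0.00959). Within every regimen the mean of the high tumours was also above that of the low ones. The 8 tumours in between ranged from 5.71 to 12.55. The highest of these, the obese sulindac tumour Mouse_114 at 12.55, had a Sox2 level of only 9.22, and across the 8 tumours the Pearson correlation with Sox2 was -0.40.

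Hs3st3b1 encodes a sulfotransferase that modifies heparan sulfate, a sugar chain on the cell surface that binds growth factors. High tumours ran from 8.54 through 9.22 to 10.16, and low tumours from 6.19 through 7.19 to 8.05. The sides did not overlap. The mean rose by 2.19 ± 0.33, from 7.17 ± 0.73 to 9.36 ± 0.61 (SD, n = 7 and 7, limma adjusted p = 0.0465). That call was lost when Sox2, which had chosen the tumours, was left out of the adjustment (adjusted p = 0.0698) and when the regimen was added as a covariate (adjusted p = 0.178). It was also lost without any 1 of 9 tumours: Mouse_17, Mouse_26, Mouse_113, Mouse_129, Mouse_X, Mouse_134, Mouse_146, Mouse_150 and Mouse_152. Over 25 alternatives that compare sides, Bpifb5 passed in 23 (adjusted p from 0.00217 to 0.759) and Hs3st3b1 in 9 (0.0163 to 0.498).

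A paralog of each gene lay higher on the same side, and both were chosen after their values were seen. Bpifb1, another member of the Bpi-fold family, ranged from 7.11 through 9.29 to 15.88 in high and from 5.16 through 5.56 to 7.06 in low tumours, so the sides did not overlap. Its difference of 4.16 ± 1.05 did not pass (limma adjusted p = 0.218). Hs3st3a1, which encodes a sulfotransferase of the same type, differed by 2.19 ± 0.44 (limma adjusted p = 0.201), with 5 of 7 high tumours above every low one. Probe sets of such close relatives can share signal, and this was not tested.

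Over the 22202 probe sets other than Sox2, these 2 calls are 0.00901%, both higher, and 0 genes (0.0%) were called lower. At an unadjusted p under 0.05 stood 2271 probe sets (10.2%), 1275 higher (5.74%) and 996 lower (4.49%). In 32 probe sets (0.144%) every high tumour lay above every low tumour, and in 15 (0.0676%) every high tumour lay below. The median difference over all probe sets was 0.00 log2 units (0.0029), and 50.6% were higher and 49.4% lower on the high side. The calls depended on single tumours. Without the obese tumour Mouse_96 there were 11 calls, without the obese tumour Mouse_101 there were 7, and without Mouse_113, Mouse_129, Mouse_X, Mouse_146, Mouse_150 or Mouse_152 there was 1. A slope on the Sox2 level over all 22 tumours, which also uses the 8 tumours in between, called 185 probe sets (0.833%), of which 56 fell with Sox2 (0.252%) and the others rose (0.581%). With the regimen in that fit the number was 47 (0.212%). The difference between the sides in a fit that holds all 22 tumours, so that those in between add to the estimate of the spread, called 13 (0.0586%), all higher. All 185 had the same sign and an unadjusted p under 0.05 between the sides, but they rest on the same tumours and are not a second test.

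The genes next in order of p on the high side did not pass between the sides, although each rose with Sox2 in the slope over 22 tumours. Smoc2, which encodes a secreted matrix protein and marks intestinal stem cells, ran from 10.47 through 11.72 to 13.55 in high and from 6.69 through 8.58 to 10.09 in low tumours. Its sides did not overlap, and the difference was 3.37 ± 0.59 (limma adjusted p = 0.0875, and 0.000709 for the slope). Fetub, which encodes the protease inhibitor fetuin-B, ranged from 7.69 through 10.08 to 11.20 in high and 5.69 through 6.36 to 7.96 in low tumours. Of its 7 high tumours, 6 were above every low one, and the difference was 3.15 ± 0.51 (adjusted p = 0.0675, slope 0.0325). Slc7a8, an amino acid transporter gene, differed by 3.35 ± 0.55 (adjusted p = 0.0675), with low tumours reaching 13.43 and high ones starting at 13.35. Nptx1, the gene of a secreted pentraxin first known from neurons, differed by 2.09 ± 0.36 (adjusted p = 0.0778), and its sides did not overlap. Tbccd1, a gene whose product acts at the centrosome, differed by 1.31 and Ift57, which encodes a part of the transport machinery of cilia, by 1.46. St7l and the zinc-finger gene Zfp608 differed by 0.88 and 0.80. Of these 10 genes with the smallest p on the high side, the 2 called ones included, 7 showed no overlap between the sides.

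**Figure D2:**
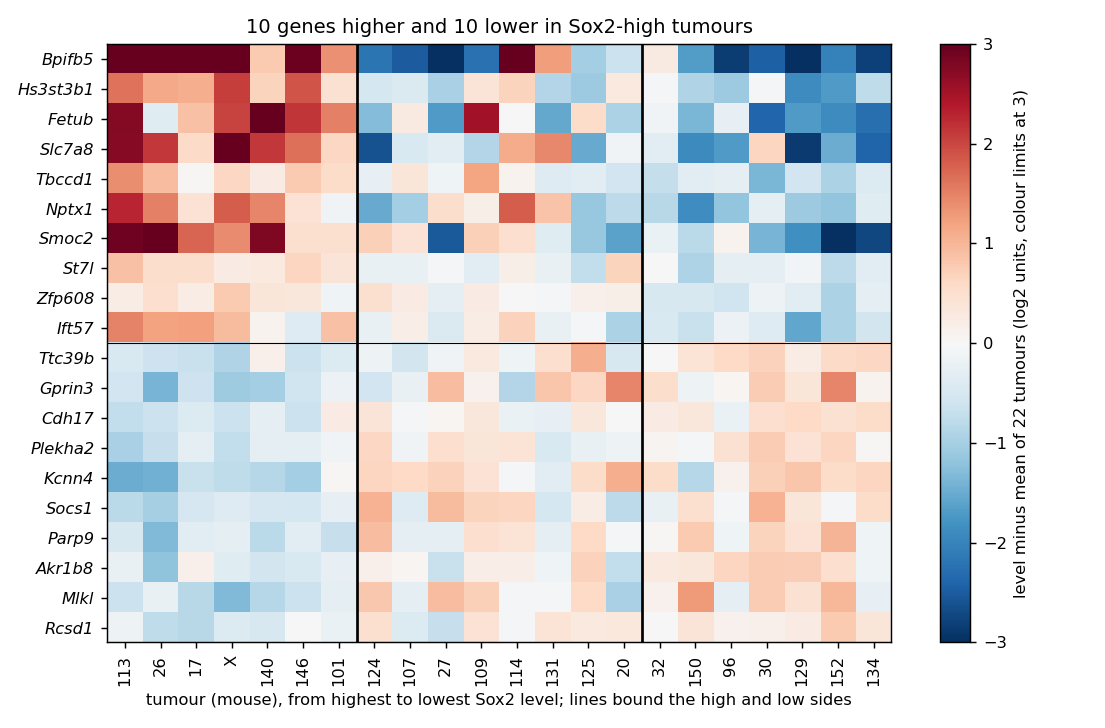
Levels of the 10 genes with the smallest p in each direction, as the difference from each gene's mean over 22 tumours (log2 units, colours limited at 3). Columns are tumours from highest to lowest Sox2, with lines bounding the 7 high and 7 low tumours, and upper genes are darker red on the left.

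On the low side of the comparison, 10 genes were lower in Sox2-high tumours with the smallest p, and none passed between the sides. Cdh17, which encodes an adhesion protein of intestinal epithelium, ran from 15.77 through 15.86 to 16.75 in high and from 16.31 through 16.97 to 17.09 in low tumours. Only Mouse_101 among the high tumours reached the range of the low ones. The difference was -0.80 ± 0.17 (limma adjusted p = 0.205), and Cdh17 fell with Sox2 in the slope over 22 tumours (adjusted p = 0.0186). Kcnn4, a potassium channel gene, differed by -1.25 ± 0.27 and Gprin3 by -1.23 ± 0.24, the latter with no overlap. Mlkl, which encodes the protein that carries out necroptosis, differed by -1.13, Parp9, an interferon-induced gene, by -0.98, and Socs1, an inhibitor of cytokine signalling, by -0.87. High tumours of Socs1 ran from 4.76 to 5.52 and low ones from 5.54 to 6.80, so the sides met without overlapping. Ttc39b differed by -0.95, the aldo-keto reductase gene Akr1b8 by -0.87, Plekha2 by -0.81 and Rcsd1 by -0.69. The adjusted p of these 10 genes was between 0.0778 and 0.205, and 5 showed no overlap between the sides.

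Within each of the 4 regimens, all 10 genes listed as higher were higher in the high tumours on average and all 10 listed as lower were lower. This describes genes that were chosen for that difference in these tumours, so it is no support for it. The obese sulindac regimen holds 1 tumour a side, and the obese one 1 low tumour. In the 8 tumours in between, which the comparison did not use, the picture was mixed. The group mean lay between those of the sides for 10 of the 10 higher and 9 of the 10 lower genes. Their order among themselves did not follow Sox2, since 5 of the 10 higher genes had a positive and 4 of the 10 lower genes a negative Pearson correlation with it over these 8 tumours.

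**Figure D3:**
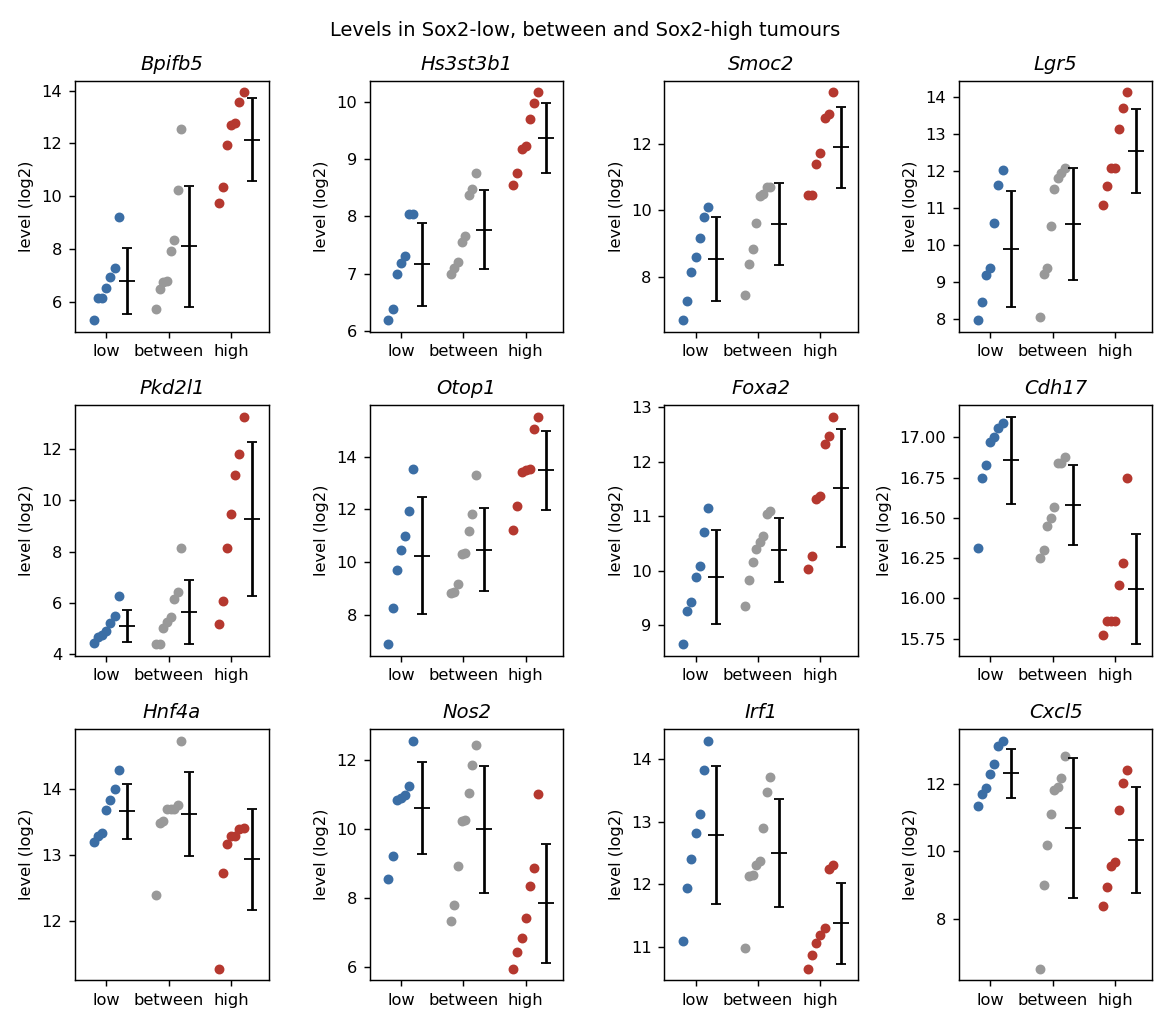
Levels (log2) of 12 genes in the 7 low (blue), 8 between (grey) and 7 high (red) tumours, 1 point a tumour, with the mean and SD beside each group. Bpifb5, Hs3st3b1 and Smoc2 show no overlap of the low and high sides, whereas Nos2 and Irf1 do.

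Genes of WNT signalling and crypt stem cells lay mostly higher in Sox2-high tumours. The list held 22 measured genes, of which 17 were higher and 5 lower, with a median difference of 0.40 against 0.00 for all probe sets. None passed between the sides, while 9 were higher at an unadjusted p under 0.05 (the background is 5.74%) and 0 lower. In the slope, 3 members rose with Sox2, namely Smoc2, Lgr5 and Tnfrsf19. Lgr5, the R-spondin receptor of crypt stem cells, ran from 11.08 through 12.09 to 14.12 in high and 7.96 through 9.36 to 12.01 in low tumours. Of the 7 high tumours 5 were above every low one, and the difference was 2.65 ± 0.65 (limma adjusted p = 0.211, slope 0.0245). Tnfrsf19, a WNT target that encodes a receptor of the tumour necrosis factor family, differed by 1.56 ± 0.45 (slope adjusted p = 0.0457) and was chosen after its values were seen. Nkd1, an inhibitor induced by WNT signalling, differed by 1.43 ± 0.38, and Lef1, a factor that acts with beta-catenin, by 0.95 ± 0.25 (limma adjusted p = 0.236 and 0.239). Sox9 differed by 0.46. Not every member of the list lay higher, with Myc at -0.08 and the stem cell marker Prom1 at -0.35.

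Members of the interferon-gamma list were lower in Sox2-high tumours without exception, yet none passed the test. Interferon-gamma is released by T and NK cells and induces guanylate-binding proteins, antigen processing and Nos2 in other cells. All 21 measured genes had a lower mean on the high side, with a median difference of -1.21, and 11 of the 21 were lower at an unadjusted p under 0.05 (background 4.49%). Neither between the sides nor in the slope was any of them called. Nos2, which encodes inducible nitric oxide synthase, ran from 5.97 through 7.42 to 11.01 in high and 8.55 through 10.91 to 12.56 in low tumours. The ranges overlapped, 5 of 7 high tumours were below every low one, and the difference was -2.77 ± 0.74 (limma adjusted p = 0.239). Irf1, a transcription factor gene of the interferon response, ran from 10.66 through 11.20 to 12.31 in high and 11.10 through 12.82 to 14.29 in low tumours. Its difference was -1.41 ± 0.43 (limma adjusted p = 0.305). Gbp3 and Gbp7, both guanylate-binding protein genes, differed by -1.46 ± 0.42 and -1.07 ± 0.33. Ido1, which encodes an enzyme that breaks down tryptophan, differed by -2.08 ± 1.26 (limma adjusted p = 0.607). The mean level of the list was 7.46 to 9.44 in high and 7.86 to 11.32 in low tumours. The low tumours Mouse_96 at 7.86 and Mouse_32 at 8.84 stood among the high ones, and the 8 tumours in between spanned 8.81 to 11.48.

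**Figure D4:**
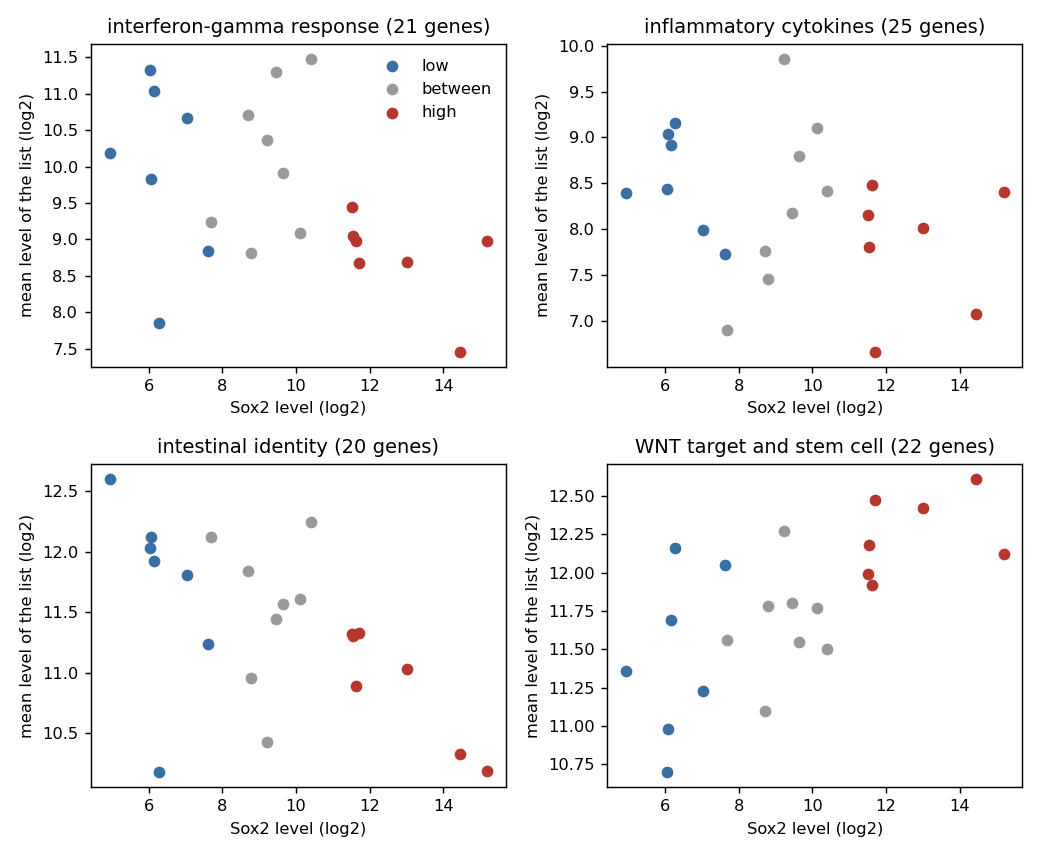
Mean level of 4 gene lists (log2, vertical axis) against Sox2 level (log2, horizontal axis) in the 22 tumours, coloured by side. In the interferon-gamma panel the low tumour Mouse_96 lies at 7.86 while the other low tumours lie from 8.84 to 11.32.

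Inflammatory genes also lay lower. Of 25 cytokine genes and NF-kB targets, 21 were lower and 4 higher in Sox2-high tumours, with a median of -0.77. At an unadjusted p under 0.05, 10 were lower and 0 higher, against 4.49% and 5.74% over all probe sets. Cxcl5, which encodes a chemokine for neutrophils, ran from 8.39 through 9.70 to 12.42 in high and 11.34 through 12.28 to 13.28 in low tumours. The sides overlapped, and the difference was -1.99 ± 0.58 (limma adjusted p = 0.287). Cxcl2, another such chemokine gene, differed by -2.09 ± 0.72, Tnf by -1.17 ± 0.37 and Nfkbiz, a nuclear regulator of NF-kB, by -1.15 ± 0.28. Il1b differed by -1.32 and Ptgs2, the inducible cyclooxygenase, by 0.05, and none of the list was called. Genes of the antimicrobial epithelium were lower in 15 of 19 cases (median -0.43, 6 lower at an unadjusted p under 0.05). This list shares Nos2 with the interferon-gamma list, and S100a8 and S100a9 with the neutrophil markers below, so these genes count in both. Reg3b, the gene of a secreted lectin against bacteria, differed by -3.58 ± 1.29, with high tumours from 6.03 to 13.14 and low ones from 7.92 to 16.69 (limma adjusted p = 0.376).

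Markers of immune cells lay in the same direction as these lists, and their part in the result was not tested. In whole tumours, fewer cells of a type and less RNA per cell cannot be told apart. Of 15 neutrophil markers 11 were lower (median -0.85, 7 lower at an unadjusted p under 0.05), and the summed log2 level of the list was 86.09 to 113.6 in high and 94.18 to 119.0 in low tumours. S100a8 and S100a9, abundant in neutrophils and also induced in epithelium, differed by -1.96 ± 0.63 and -1.72 ± 0.71, Csf3r by -0.97 and Il1r2 by -0.87. Of 16 macrophage markers 15 were lower (median -0.33, summed level 136.3 to 155.9 against 141.3 to 163.4), among them the monocyte genes Ly6c2 at -1.42 and Cd14 at -1.06. Of 18 T and NK cell markers 16 were lower (median -0.27, summed level 103.4 to 124.3 against 101.2 to 126.6). The granzyme gene Gzma was an exception at 1.47, and Nkg7, of cytotoxic granules, was at -0.48. Of 16 B and plasma cell markers 15 were lower (median -0.35, summed level 108.5 to 120.6 against 111.6 to 150.4), and this median was -0.02 without Mouse_152. None of these markers was called. Macrophage markers had 2 lower and 0 higher at an unadjusted p under 0.05, and T and NK cell markers 1 lower and 1 higher. B and plasma cell markers had 0 either way, against 4.49% lower and 5.74% higher over all probe sets. Mast cell markers went the other way, with 9 of 12 higher (median 0.48, 3 higher at an unadjusted p under 0.05, summed level 87.41 to 125.3 against 93.16 to 106.2). Tpsb2, a mast cell tryptase gene, differed by 1.76 ± 0.64, the stem cell factor receptor gene Kit by 1.65 ± 0.66 and the IgE receptor subunit gene Ms4a2 by 1.25 ± 0.44. The other 3 members were lower. Hdc, 1 of these, ran from 7.32 through 8.97 to 11.06 in high and 8.15 through 11.22 to 11.52 in low tumours. The mean level of the mast cell list did not follow Sox2 across the 3 groups. It was 7.28 to 10.44 in high, 8.58 to 10.88 in between and 7.76 to 8.85 in low tumours. Kit was highest in Mouse_26 at 12.90, the tumour with the lowest mean of that list at 7.28.

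Markers of intestinal identity were lower in Sox2-high tumours in 19 of 20 cases, with a median of -0.80. The mean level of the list was 10.19 to 11.33 in high and 10.18 to 12.6 in low tumours. The low tumour Mouse_96 at 10.18 was below every high one, and the low tumour Mouse_32 at 11.24 stood among them. At an unadjusted p under 0.05, 8 of these markers were lower and 0 higher, against 4.49% and 5.74% over all probe sets. None was called between the sides, and in the slope Cdh17 alone fell. Hnf4a, a nuclear receptor that drives intestinal genes, ran from 11.28 through 13.29 to 13.41 in high and 13.19 through 13.68 to 14.29 in low tumours. The sides overlapped, with 4 of 7 high tumours above the lowest low one. The difference was -0.72 ± 0.30 (limma adjusted p = 0.433), and -0.45 without Mouse_113, the tumour at 11.28. Isx, an intestinal homeobox gene, differed by -1.61 ± 0.65 and A1cf, a factor in the editing of apolipoprotein B RNA, by -0.84 ± 0.35. Cdx2 ranged from 7.11 to 12.75 in high and from 7.26 to 12.87 in low tumours, and Cdx1 from 6.86 to 8.78 and from 5.21 to 9.88. Their differences of -0.81 and -0.50 were far inside the spread (limma adjusted p = 0.815 and 0.822). Muc2, the main mucin of goblet cells, was at 14.27 or more in all 14 tumours, and the difference was -0.04.

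Absorptive colonocyte genes were lower in 21 of 26 cases (median -0.66), but without Mouse_134 this median was -0.13. That low tumour had a mean level of 12.75 over the list, while the other 6 low tumours lay at 7.97 to 10.27. Car1, which encodes carbonic anhydrase of the colon surface, differed by -1.78, the chloride exchanger gene Slc26a3 by -1.22, the sulfotransferase gene Sult1a1 by -1.27 and the lactate and butyrate transporter gene Slc16a1 by -0.73. Single tumours moved these values. Without Mouse_134 Slc26a3 was at -0.38 and Sult1a1 at -0.69, and without the high tumour Mouse_26 Car1 was at -1.06 and Slc16a1 at -0.46. Scnn1b, a subunit gene of the epithelial sodium channel, lay 1.05 ± 0.34 higher and was the sole member with an unadjusted p under 0.05. Goblet cell genes were split, with 11 of 21 higher and a median of 0.07.

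**Figure D5:**
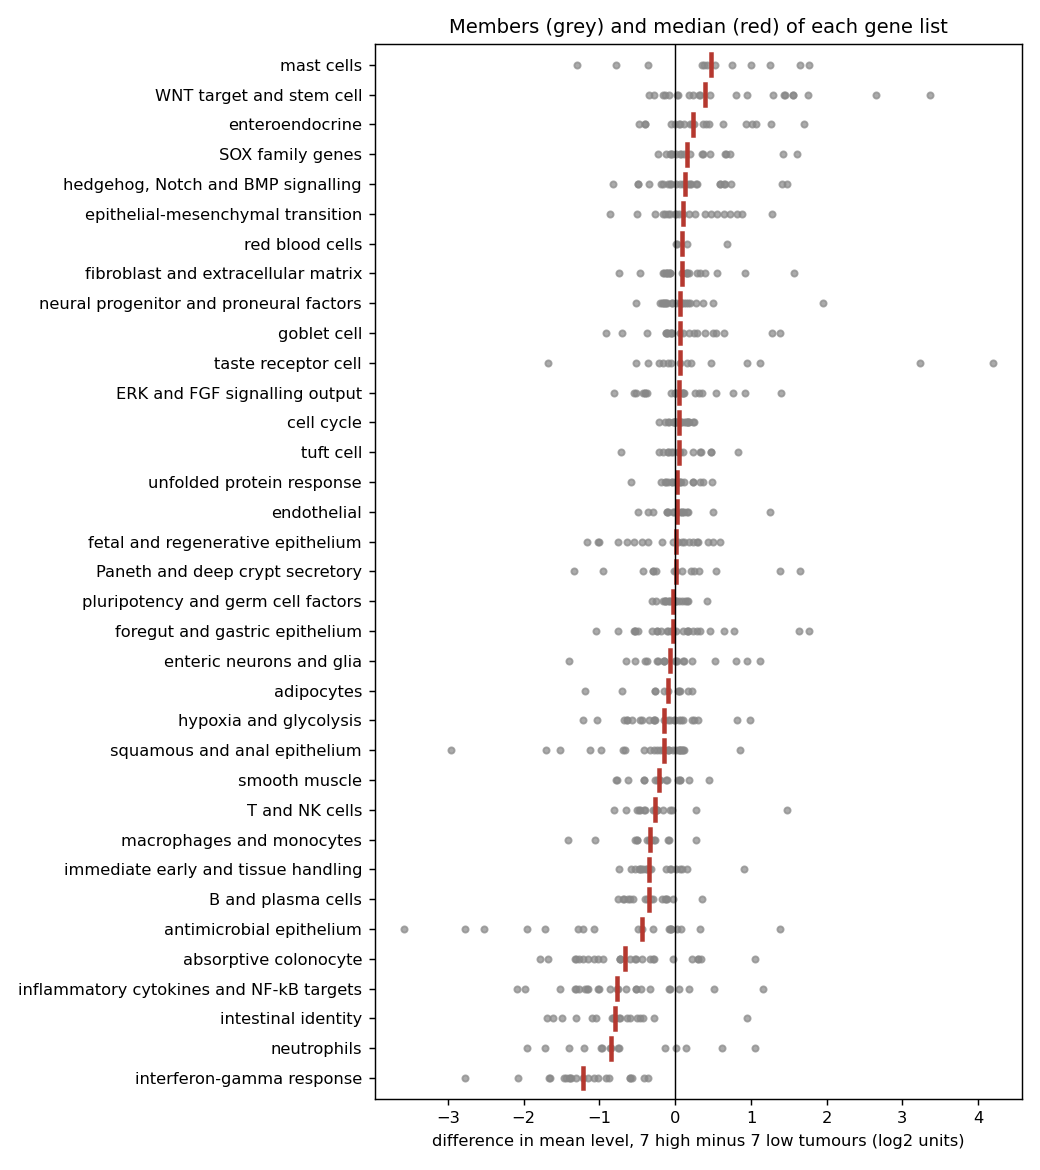
Difference in mean level between the 7 high and 7 low tumours (log2 units, horizontal axis) for every measured member (grey) and the median (red) of each of 35 gene lists. The interferon-gamma list has the lowest median at -1.21 and mast cell markers the highest at 0.48.

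Genes of the tissues in which Sox2 normally acts were split in direction. Of 28 foregut and gastric genes 13 were higher and 15 lower (median -0.04). At an unadjusted p under 0.05 stood 3 higher and 0 lower, against 5.74% and 4.49% over all probe sets. The gastric genes Muc5ac, Tff2 and Cldn18 lay at 3.88 to 5.45 in all 22 tumours, below the array medians of 6.67 to 6.83. A difference near 0 at such levels does not show equal expression. The mucin gene Muc5ac differed by -0.06, Tff2 by -0.05, Cldn18 by 0.17 and Anxa10 by -0.53. Foxa2, a pioneer factor of endoderm, was an exception. High tumours ran from 10.04 through 11.37 to 12.83 and low ones from 8.65 through 9.88 to 11.15, with 5 of 7 high tumours above every low one. It rose with Sox2 in the slope (adjusted p = 0.0267), and the difference between the sides was 1.64 ± 0.47 (limma adjusted p = 0.272). Atp4a, the proton pump gene of parietal cells, differed by 1.77 ± 0.63, the forkhead gene Foxq1 by 0.78 ± 0.23 and Capn9, a calpain gene of the gut, by 0.65.

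Among 15 genes of taste receptor cells, 8 were higher and 7 lower (median 0.06). At an unadjusted p under 0.05 stood 4 higher and 0 lower, against 5.74% and 4.49% over all probe sets. In the slope 2 channels of sour-sensing cells rose with Sox2. Pkd2l1, a cation channel gene that marks these cells, ran from 5.15 through 9.46 to 13.29 in high and 4.40 through 4.88 to 6.27 in low tumours. Of the high tumours 5 of 7 were above every low one, and the difference was 4.20 ± 1.03 (limma adjusted p = 0.214, slope 0.0185). Otop1, which encodes the proton channel itself, ran from 11.21 through 13.50 to 15.52 in high and 6.87 through 10.46 to 13.52 in low tumours. The ranges overlapped, and the difference was 3.23 ± 0.90 (limma adjusted p = 0.257, slope 0.0481). The taste G protein gene Gnat3 differed by 0.48 and Snap25, a gene of vesicle release, by 1.11. Gnat3 lay at 4.17 to 5.59 in all 22 tumours, below the array medians. The other members of the list were not named by the rule used and none was called.

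Within the SOX family 13 of 18 other members were higher and 5 lower (median 0.16), none called. Sox11 differed by 1.61 ± 0.60, Sox6 by 1.43 ± 0.47, Sox12 by 0.73 ± 0.33 and Sox4 by 0.66 ± 0.23, each with an unadjusted p under 0.05 (limma adjusted p from 0.331 to 0.466). Sox21, often found where Sox2 acts, differed by 0.37 and its sides overlapped. Sox10, the marker of enteric glia, was at 4.68 ± 0.34 in high and 4.90 ± 0.45 in low tumours. Of 20 measured genes of enteric neurons and glia 9 were higher and 11 lower (median -0.07), with the glial filament gene Gfap at -0.38, the neuropeptide gene Tac1 at -1.41 and the neuronal gene Elavl4 at 0.80. Pluripotency genes were split 9 to 10 with a median of -0.03.

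Squamous genes, which could enter from the anal canal, were lower in 18 of 27 cases (median -0.15). Dsg3, a desmosomal cadherin gene of squamous epithelium, ran from 5.37 through 6.61 to 11.22 in high and 7.58 through 10.76 to 12.91 in low tumours, a difference of -2.95 ± 0.86 that did not pass (limma adjusted p = 0.286). Ly6d differed by -1.70 and Dsc3 by 0.85. The basal cell genes Krt5 and Trp63 were at 4.39 and 4.68 in high and 4.33 and 4.88 in low tumours. Both lay below the array medians in all 22 tumours, where a difference near 0 does not show equal expression. Genes of the fetal or regenerating epithelium were split 10 to 10 (median 0.01), with 1 higher and 4 lower at an unadjusted p under 0.05. Over all probe sets the shares were 5.74% and 4.49%. In the slope Krt19, a keratin gene of simple epithelium, fell with Sox2 (adjusted p = 0.0185). Anxa3 and Anxa2 of that list differed by -1.02 and -0.75. Cell cycle genes hardly differed, with a median of 0.05 over 22 genes and 0 at an unadjusted p under 0.05. The proliferation marker Mki67 was at 14.07 in high tumours, a difference of 0.07.

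The genes whose levels followed Sox2 most closely over the 22 tumours were chosen by Pearson r, which is given as a description. Smoc2 had the highest (0.85, Spearman 0.87), then Ift57 (0.83), Tbccd1 (0.80), Ccdc136 (0.79), Anp32a (0.78) and Wdr35 (0.78). Ift57 and Wdr35 both encode parts of intraflagellar transport, which builds cilia. The lowest belonged to Krt19 (-0.81), the plakophilin gene Pkp3 (-0.79), Cdh17 (-0.78), Rapgef5 (-0.77), Tmem125 (-0.77) and Lasp1 (-0.76). Without Mouse_113 and Mouse_26, the 2 tumours farthest from the median Sox2 level, the r of Smoc2 was 0.78 and that of Krt19 -0.66 over the other 20. Each pair of levels comes from the same array.

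The 4 measured genes on each side of Sox2 on its chromosome, in the order of the RefSeq annotation and chosen by position, gave no call. Ttc14, Ccdc39, Fxr1 and Dnajc19 on one side differed by 0.11, -0.07, 0.33 and -0.07. Atp11b, Dcun1d1, Mccc1 and Ccdc144b on the other differed by -0.37, 0.20, 0.28 and 0.17. Among these 8, Atp11b alone had an unadjusted p under 0.05 (0.0253).

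The correlation of each array with the others had a median between 0.965 and 0.983. The 4 lowest belonged to Mouse_26, Mouse_134, Mouse_X and Mouse_113, of which 3 are on the high and 1 on the low side. Weighting arrays by their quality left 1 call, Bpifb5.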

How the data were processed

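Total RNA of 22 tumours was labelled and hybridised to Clariom S arrays, per the labels' protocols. The authors deposited log2 levels for 22203 probe sets with 2 decimals, and Transcriptome Analysis Console 4.0 is listed in the submitters' processing notes. How probes were corrected for background, summarized and normalized, and which log base was used, is not stated in the sources used here, and base 2 was read from the range of 3.34 to 19.49. Array medians of 6.67 to 6.83 show a common scale, which removes differences in total RNA, and no level above background is known for a probe set. The platform annotation named 19572 probe sets and left 2631 unnamed here. Of several probe sets of a gene (55 genes) the one with the highest mean stands for it, and Sox2 had 1. Groups came from the titles.

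The 7 highest and 7 lowest tumours by Sox2 were compared by limma 3.58.1 under R 4.3.3 (functions lmFit, then eBayes), two-sided, with Benjamini-Hochberg adjustment over 22203 probe sets and a call at an adjusted p under 0.05. Sox2 counts in the adjustment but not among the calls. The 8 tumours in between were not in that fit. Sox2 was compared between regimens over all 22 tumours. The script was tested on simulated data. Alternatives were the regimen as a covariate, all 22 tumours in the fit, 5, 9 or 11 tumours a side, a slope on Sox2, array weights, centred or quantile-normalized arrays, probe sets with a mean above 6, an intensity trend, and leaving out each tumour. Omitting Sox2 from the adjustment and the slope with the regimen as a covariate were chosen after seeing the data.

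Named genes are the 14 largest changes per direction among calls, filled by the smallest p to 10, up to 4 members with the smallest p of each list described, a fixed set of always-named genes, and the 6 highest and 6 lowest Pearson r with Sox2. Predicted genes, Riken clones and olfactory, vomeronasal and taste 2 receptors are counted, not named. The ranking gene, the lists and the rules were chosen with earlier results of these data known. A list is described by its counts and median, without a test. Promoters matched 15691 of 19505 gene symbols. Smoc2, Lgr5 and Cdh17 had none in that table. Nothing in the labels says that the tumours were processed in batches, so none could be modelled. The labels name separate mice, so the spread between samples is that between animals, and 14 arrays limit the precision of each difference.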

Additional observations from a re-analysis of the deposited data

Results flagged for a closer look

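In 12 of 260 groups of tumours tested (each named gene on each side, and Sox2 by regimen and side), 1 tumour stood apart from its group by Dixon's test, where chance gives about 1 in 20. No cause was tested for any of them. Mouse_26, a high tumour, was at 10.62 for Car1, where the next lowest high tumour was at 14.45, at 10.99 for Anxa3 (next 12.71) and at 8.93 for Gzma (next 6.77). Mouse_134, a low tumour, was at 11.59 for Sult1a1 (next 8.40) and at 7.70 for Snap25 (next 5.37). Mouse_X, a high tumour, was at 13.03 for Lef1 (next 12.09) and at 11.96 for Slc26a3 (next 8.36). Mouse_113 was the lowest high tumour for Hnf4a at 11.28 (next 12.72), and Mouse_96 the lowest low tumour for Cdx1 at 5.21 (next 8.24). Mouse_101 was at 16.01 for Prom1 (next 14.51), Mouse_146 at 8.01 for Anxa10 (next 5.35) and, on the low side, Mouse_150 at 8.44 for Kcnn4 (next 9.42). In 0 of 127 genes did the sides separate in opposite directions within control and within formerly obese tumours. Many of these genes were named for their difference between the sides in the same tumours, so this is no support for agreement between the regimens.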

How the results depend on the processing

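Bpifb5 kept its call in 23 of 25 alternatives that compare sides, the exceptions being 9 and 11 tumours a side (differences down to 2.19). The number of calls, 2 in the comparison reported, was 1 with the regimen as a covariate, 1 with 5 tumours a side, 1 with array weights, 1 after quantile normalization and 1 with Sox2 left out of the adjustment, all higher. It was 13, all higher, with all 22 tumours in the fit. With 9 and 11 tumours a side it was 0 and 0 in limma, where 2015 and 1455 probe sets had an unadjusted p under 0.05. The slope called 185 (0.581% of probe sets higher, 0.252% lower), and with the regimen as a covariate 47 (0.167% higher, 0.045% lower). As a share, 1 call is 0.0045% and 13 are 0.0586%. Leaving out 1 tumour gave 1 to 11 calls, 0.0045% to 0.045% higher and 0.0% to 0.0045% lower. The cause of these changes was not tested.

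Differences near 0 changed sign. Tff2 was 0.0033 and Ttc14 -0.0044 with 9 tumours a side, and Trp63 was 0.13 with 9 (0.1322) and 0.13 with 11 (0.1273). Cldn18 was -0.03 (-0.0336) with 11 a side. Muc2 was 0.21 with the regimen as a covariate, 0.04 with 9 tumours a side (0.0356), 0.07 with array weights (0.0719) and 0.0063 after quantile normalization. Ptgs2 was -0.15 and Mki67 -0.02 (-0.0160) with 5 tumours a side, Mki67 had a slope of -0.0002 and Ptgs2 one of -0.01 (-0.0119) with the regimen as a covariate. Leaving out 1 tumour gave -0.18 to 0.0486 for Myc, -0.12 to 0.0310 for Muc5ac, -0.12 to 0.0102 for Tff2, -0.25 to 0.40 for Muc2, -0.44 to 0.41 for Ptgs2, -0.09 to 0.24 for Mki67, -0.0295 to 0.18 for Ttc14 and -0.17 to 0.0157 for Dnajc19. The Sox2 difference between obese and control ran from -0.42 to 1.81, that between formerly obese and obese from -3.33 to -1.10 and that between obese sulindac and obese from -2.42 to -0.20.

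Of the 35 list medians, 19 kept their sign under all alternatives that compare sides, and 16 did not. Of the 16, the immediate early list had a median of -0.35 and the others lay at 0.13 or nearer to 0. Among lists with values above, these were foregut (up to 0.0971), taste (down to -0.21), goblet (to -0.13), fetal (to -0.14), pluripotency (up to 0.0071), cell cycle (down to -0.0523), fibroblast (to -0.18), ERK and FGF (to -0.12) and hedgehog, Notch and BMP genes (to -0.0809). Tuft cell genes were at -0.16 (-0.1564) with 11 tumours a side, against 0.05. With 11 tumours a side the median of the interferon-gamma list was -0.52, that of the inflammatory list -0.36, that of intestinal identity -0.40 and that of mast cells 0.0964. The neutrophil median was -0.37 with 9 a side. The antimicrobial median was -0.16 without Mouse_26 and -1.07 among probe sets with a mean above 6, and the mast cell median 0.28 without Mouse_140 and 0.78 without Mouse_26. No paired analysis was possible because no mouse number is shared between the groups.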

Other observations

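Several signalling and stromal genes outside the lists described above also differed in mean, though none was called. Of 25 genes of hedgehog, Notch and BMP signalling 16 were higher in Sox2-high tumours (median 0.13). Bmp7, a ligand of the BMP family, was 1.47 ± 0.45 higher, the Notch target Hes1 0.66, the BMP and TGF-beta inhibitor Smad7 0.59 and the receptor gene Notch1 0.59. Of 22 genes that report ERK and FGF signalling 13 were higher (median 0.05), with the ETS factor gene Etv5 at 1.40, the feedback inhibitor gene Spry1 at 0.93 and Spred1 at 0.54. Vim, the intermediate filament gene of mesenchymal cells, was 1.28 ± 0.39 higher with 5 of 7 high tumours above every low one, while Zeb1, a repressor of epithelial genes, was at -0.51. Lum, a proteoglycan gene of fibroblasts, was 1.57 higher, but the 21 fibroblast genes were split, 11 higher and 10 lower (median 0.09). At an unadjusted p under 0.05 stood 2 higher and 1 lower, against 5.74% and 4.49% over all probe sets. Thy1 of that list was lower, from 5.01 through 5.52 to 6.06 in high and 5.42 through 6.09 to 7.22 in low tumours.

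Hypoxia and glycolysis genes went both ways, with 9 of 25 higher and 16 lower (median -0.14). Egln3, an oxygen-sensing hydroxylase gene, was at -1.21 and the hexokinase gene Hk1 at -0.64, against Bnip3 at 0.81 and the aldolase gene Aldoc at 0.99. Immediate early genes, which respond to tissue handling, were lower in 14 of 19 cases (median -0.35), with Jun at 0.91 and Jund at -0.35. For this list 2 tumours stood far from the rest, Mouse_134 (low) at a mean level of 12.37 and Mouse_140 (high) at 12.21, the other 20 lying from 9.16 to 10.77. The median was 0.25 without Mouse_134 and -0.58 without Mouse_140.

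A pair of lineage genes was high in some of the high tumours. Zic2, a neural transcription factor gene, was at 13.22 in Mouse_26 and 8.32 in Mouse_113, the 2 tumours with the highest Sox2, at 5.49 in Mouse_140, and at 4.24 to 4.68 in the low tumours. Neurog3, which starts the enteroendocrine lineage, was at 10.32 in Mouse_26, 7.46 in Mouse_140 and 6.37 in Mouse_146, and at 3.82 to 4.50 in the low tumours. The remaining high tumours were at 4.44 to 4.51 for Zic2 and 3.91 to 4.51 for Neurog3. Of 23 neural progenitor genes 13 were higher and 10 lower (median 0.07, 0 at an unadjusted p under 0.05). Of 20 enteroendocrine genes 15 were higher and 5 lower (median 0.23). At that p stood 1 higher and 0 lower, against 5.74% and 4.49% over all probe sets. The enteroendocrine list had its highest mean level, 6.88, in the low tumour Mouse_134.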
